A study of Rattus norvegicus with 320 samples.

Results

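The uterus of female Fischer 344 rats, an inbred laboratory strain, was compared between week 21, when the rats were adult, and week 104, when they were aged. The comparison used every uterus library of these ages, 4 per age and 8 of the 320 libraries of the series, and all 616 miRNA rows of the count table. Small RNA was sequenced from 11 organs of both sexes at 4 ages, with a separate rat behind each uterus library, and the labels name no treatment. The uterus samples were ground organ, so the inner lining, the muscle wall, vessels and blood were measured together. The stage of the estrous cycle is not given in the sources used here.

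MicroRNAs are short RNAs that are cut as a 5′ and a 3′ arm from a hairpin and lower the output of messenger RNAs that pair with their seed, bases 2 to 8. Many are made in clusters from one long transcript, so that cluster members often rise and fall together. One of the largest such groups in mammals lies between Dlk1 and Dio3, an imprinted region whose miRNAs are made from the maternally inherited chromosome, are abundant in embryos and in the brain, and are low in most adult tissue. In the adult uterus, miR-143 and miR-145 are typical of smooth muscle, the miR-200 family of epithelium, and miR-223 and miR-142 of blood-derived cells.

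The sequences on which the comparison turned are given 5′ to 3′ as in the deposited table, and each was identical to the RefSeq entry of that name. Capitals mark the seed. The first set holds the Dlk1-Dio3 miRNAs with the highest levels among those called lower.
miR-127-3p: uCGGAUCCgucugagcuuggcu
miR-411-5p: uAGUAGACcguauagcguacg
miR-434-3p: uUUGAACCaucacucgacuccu
miR-541-5p: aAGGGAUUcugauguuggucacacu
miR-410-3p: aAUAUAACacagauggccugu
miR-136-3p: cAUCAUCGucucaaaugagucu
These 6 seeds differed from one another. Among the 34 miRNAs of the region called lower at week 104 there were 34 different seeds, so none of them shared a seed with another. The second set holds miRNAs called higher, beside relatives that were not called.
miR-10a-5p: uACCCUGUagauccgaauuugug
miR-10b-5p: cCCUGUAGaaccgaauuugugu
miR-26a-5p: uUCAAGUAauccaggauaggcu
miR-26b-5p: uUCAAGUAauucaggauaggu
miR-34c-5p: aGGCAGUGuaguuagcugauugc
miR-34b-5p: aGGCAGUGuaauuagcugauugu
miR-449a-5p: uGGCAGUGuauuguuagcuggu
miR-129-1-3p: aAGCCCUUaccccaaaaag
miR-129-2-3p: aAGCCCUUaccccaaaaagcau
The miR-26 pair and the miR-129 3′ arms shared a seed within each pair, as did miR-34c-5p, miR-34b-5p and miR-449a-5p. The listed miR-10b-5p starts further in than miR-10a-5p, so their seeds as listed differ although most of their letters are shared. Reads were aligned with a mismatch allowed, so the split of reads between such close relatives is uncertain. The third set holds miRNAs called lower outside the region.
miR-223-3p: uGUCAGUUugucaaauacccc
miR-9a-5p: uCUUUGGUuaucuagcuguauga
miR-450a-5p: uUUUGCGAuguguuccuaaugu
miR-450b-5p: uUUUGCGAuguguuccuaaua
The last pair shared its seed and lay in the same cluster.

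Library totals ran from 6428871 to 7686891 counts at week 21 and from 6444272 to 10571766 at week 104. The 8 libraries were of 1 organ by their leading miRNAs, with miR-143-3p of smooth muscle first in each age by mean and the 10 most abundant miRNAs taking 82.9% to 86.4% of counts at week 21 and 85.2% to 89.7% at week 104. Mean Pearson's r of log2(CPM + 1) across miRNAs was 0.994 within week 21, 0.993 within week 104 and 0.984 between the ages. Levels below are counts scaled to a library total of 1000000 (CPM). Fold changes are from edgeR's quasi-likelihood test with TMM scaling, and a miRNA was called at a Benjamini-Hochberg adjusted p under 0.05 over all 616. The TMM factors were 0.947 to 1.17 at week 21 and 0.521 to 0.877 at week 104, with week 104 replicate 1 lowest, so that a fold change was less negative, or more positive, than the ratio of CPM.

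From week 21 to week 104, 59 miRNAs fell (9.58% of the 616) and 22 rose (3.57%). With a log2 fold change of at least 1 in size as well, 54 fell (8.77%) and 12 rose (1.95%). Of the falls, 34 of 59 came from the Dlk1-Dio3 region, and the leading rises with at least 50 CPM were miR-129-5p, miR-34c-5p, miR-10a-5p and miR-1247-5p. Larger log2 values among the rises belonged to miRNAs under 50 CPM, among them both arms of miR-802, miR-1247-3p, miR-34b-3p and the 3′ arms of miR-129. The median log2 fold change of all miRNAs was −0.15 with TMM and −0.61 when libraries were scaled by their totals alone, and the share of calls that were rises moved from 27.2% to 4.72%. All 59 miRNAs called lower were also called lower by totals alone. All 22 called higher kept a positive log2 fold change there, but 5 stayed called. The CPM of the ages did not overlap for 56 of the 59 called lower, where 23.2% of all miRNAs were lower without overlap, and for 2 of the 22 called higher, where 0.325% were higher without overlap.

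**Figure D1:**
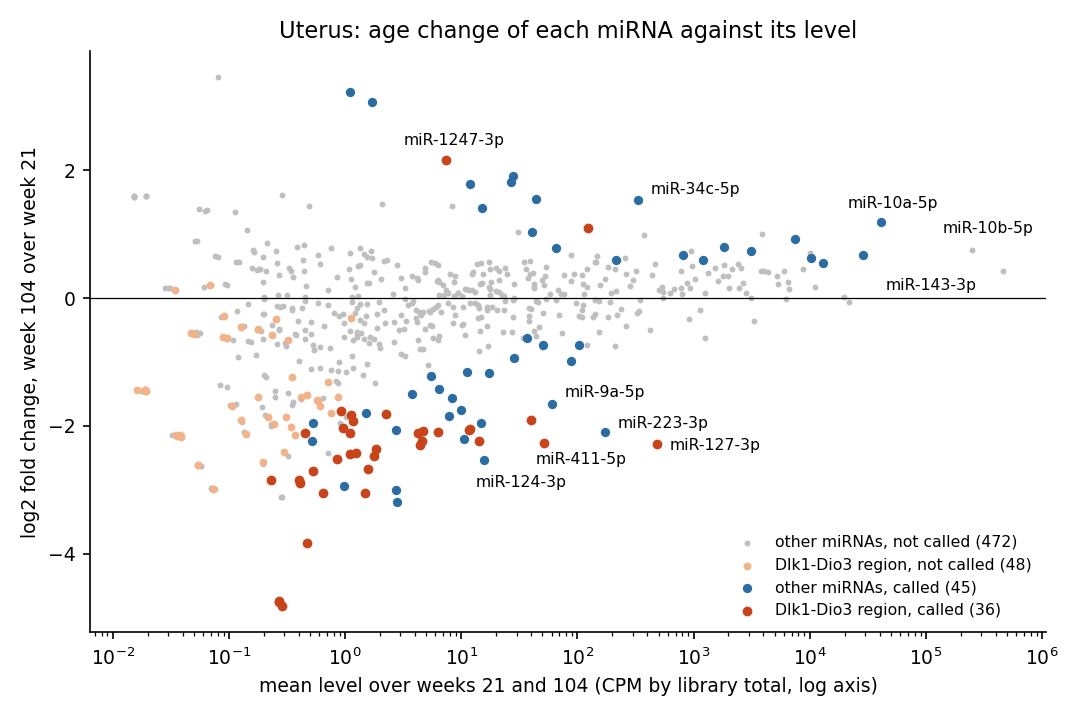
Each point is 1 of the 601 miRNAs with a read at week 21 or 104, with its mean CPM over both ages on a log axis and its log2 fold change, week 104 over week 21, on the vertical axis. Orange and red points are miRNAs of the Dlk1-Dio3 region, red and blue points were called, and the red points lie at log2 fold changes of −1.76 or below except for both arms of miR-1247.

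The Dlk1-Dio3 region was taken by position, as the miRNA genes between Dlk1 and Dio3 on chromosome 6 of the RefSeq rat annotation, where 58 miRNA genes lie in order and 51 of them had a row. These gave 87 mature miRNAs, of which 36 had a mean count of at least 10 over the 16 uterus libraries and 31 were at or under 3 counts in every library of both ages. At week 104, 34 of the 87 were called lower (39.1%, against 4.73% of the 529 miRNAs outside the region) and 2 higher. The median log2 fold change of the 87 was −1.92, against −0.03 for the miRNAs outside. The remaining 51 were not called, and 80 of the 87 had a log2 fold change below 0. Some members passed only through week 21, where they were high, so these shares describe the set and were not tested as a set.

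The summed level of the 87 miRNAs was 1704, 1396, 1047 and 953 CPM in replicates 1 to 4 of week 21. It was 372, 209, 459.7 and 289.9 CPM at week 104. The sums did not overlap, with means of 1275 ± 344 and 333 ± 108 CPM (SD, n = 4). The younger ages continued the series upward, with 11310 ± 1913 CPM at week 2 and 2090 ± 715 at week 6. Weeks 6 and 21 overlapped, while week 104 lay below every other age.

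**Figure D2:**
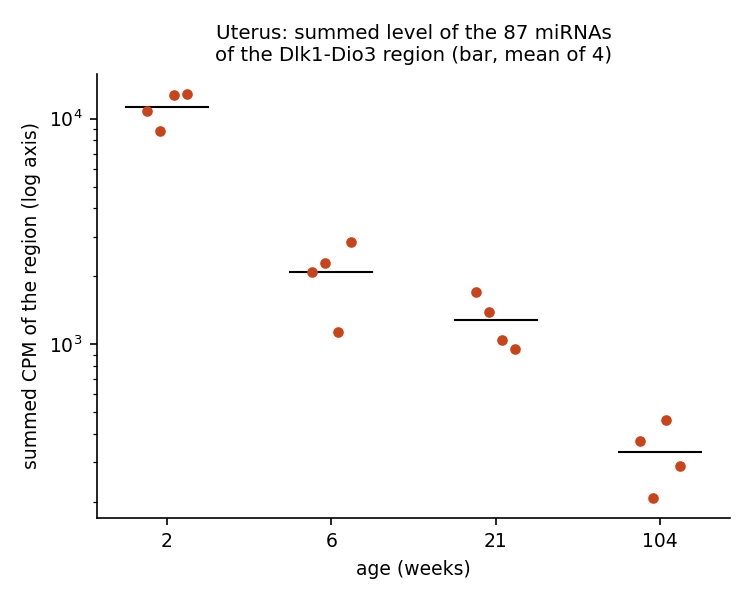
Summed CPM (log axis) of the 87 miRNAs of the Dlk1-Dio3 region in each of the 16 uterus libraries at 4 ages (weeks), with the mean of 4 as a bar. The 4 libraries of week 104 lie between 209 and 459.7 CPM, below all libraries of the other ages.

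The most abundant member was miR-127-3p, which lies antisense to the retrotransposon-like gene Rtl1. It stood at 1085, 989.7, 676 and 648 CPM at week 21 and at 105.5, 87.99, 174.9 and 126.04 CPM at week 104. Every library of week 104 was below every library of week 21. The log2 fold change was −2.28 (SE 0.24, adjusted p = 1.66e-06), a 4.85-fold lower level, and its other arm, miR-127-5p, was called lower too (adjusted p = 0.0015), at least 3.69-fold lower against 3 counts per library.

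Near miR-127 lie miR-434 and miR-136, which are antisense to Rtl1 too. miR-434-3p was at 107, 62.3, 53.0 and 44.2 CPM at week 21 and at 7.85, 9.78, 20.04 and 13.1 CPM at week 104. It was 3.76-fold lower (log2 −1.91, SE 0.27, adjusted p = 4.63e-05), and its groups did not overlap. The 3′ arm of miR-136 gave 33.2, 15.1, 19.3 and 12.2 CPM against 2.18, 2.95, 4.86 and 3.55 CPM, a log2 fold change of −2.06 (SE 0.27, adjusted p = 3.62e-05). Its groups did not overlap either, and the 5′ arms of both hairpins were called lower, at −2.08 for miR-434-5p and −2.31 for miR-136-5p. In the stretch from Meg3, the noncoding gene at the start of the miRNAs, to Mir370, 10 of 25 miRNAs were called lower (40.0%, against 4.73% outside the region). They included miR-431 (−1.81), miR-341 (−2.10) and miR-433-3p, which was at least 2.29-fold lower against 3 counts per library.

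The long cluster from Mir379 to Mir410 had 24 of 60 miRNAs called lower (40.0%, against 4.73% outside the region) and none higher, by the same test. miR-411-5p was at 121, 81.8, 88.7 and 67.7 CPM at week 21 and at 10.03, 11.95, 13.97 and 16.6 CPM at week 104, and had the smallest adjusted p of the fit. Its log2 fold change was −2.27 (SE 0.20, adjusted p = 1.4e-07), with no overlap. At the far end of the cluster, miR-410-3p was at 30.5, 21.3, 16.5 and 12.2 CPM against 1.23, 4.04, 4.495 and 4.52 CPM. This was a log2 fold change of −2.05 (SE 0.27, adjusted p = 3.62e-05), with the lowest value of week 104 in replicate 1.

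Further members of that cluster moved by like amounts. miR-541-5p was at 35.05, 29.8, 19.4 and 14.5 CPM at week 21 and at 4.07, 3.10, 3.28 and 3.55 CPM at week 104 (log2 −2.24, SE 0.31, adjusted p = 4.4e-05). Called with it were miR-379-5p (−2.11), miR-134-5p (−2.48), a miRNA known from neuronal dendrites, miR-409a-3p (−2.24), miR-300-3p (−2.11) and miR-376b-3p (−2.67). In the region 7 hairpins had both arms at a mean count of at least 10 and both called lower.

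Of the 34 called lower, 33 had no overlap in CPM between the ages. The same held for 56 of all 59 called lower, and 23.2% of all 616 were lower without overlap. Of the 34, 11 were at or under 3 counts in every library of week 104. The 23 above that floor fell by 1.76 to 3.06 on the log2 scale. For members at the floor the fitted fold change depends on the prior count and only a bound can be given. miR-376a-3p, for example, was at 0.759, 0.780, 0.467 and 0.287 CPM at week 21 and had no count at week 104, at least 1.085-fold lower against 3 counts per library, on the TMM scale of the fold changes. Likewise miR-494-3p was at least 1.051-fold lower and miR-299b-3p at least 1.065-fold lower, and of the 11 only miR-154-5p had no bound above 1-fold. Over the 56 members above the floor at 1 age or both, the median log2 fold change was −2.09 as fitted and −1.27 with floor members at their bound.

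**Figure D3:**
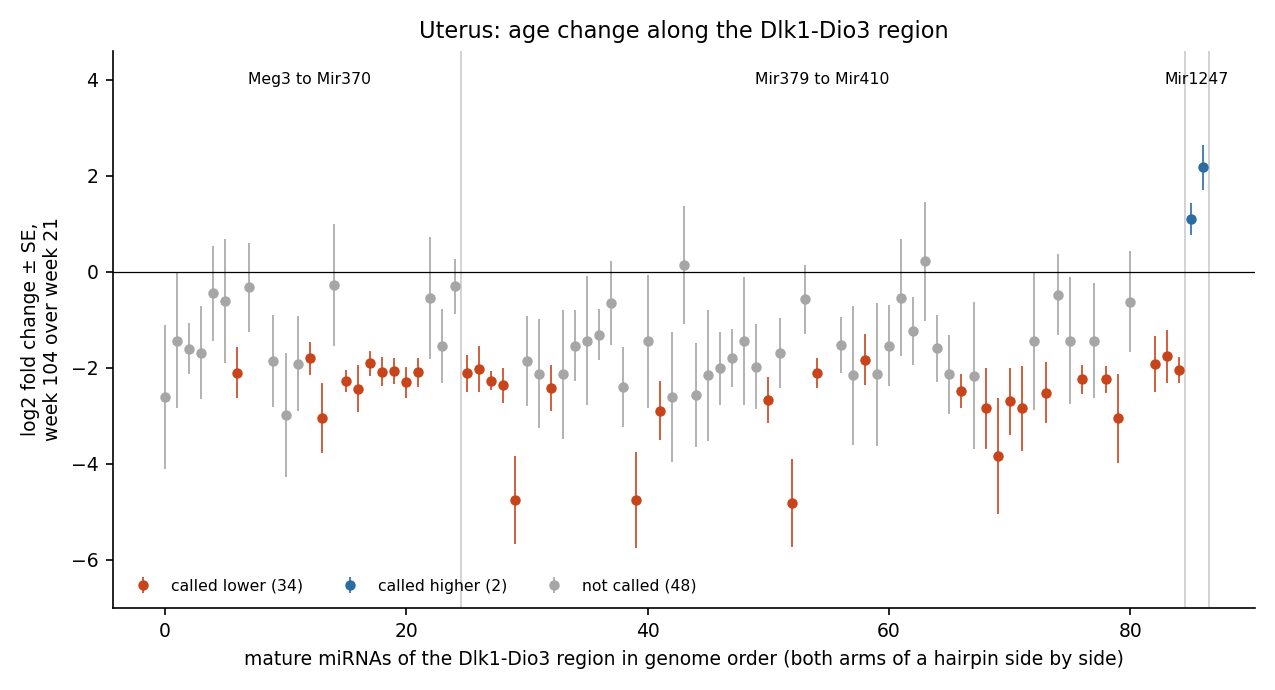
Log2 fold change, week 104 over week 21, with its SE, for the 84 miRNAs of the Dlk1-Dio3 region with a read at either age, in genome order from the Meg3 end to the Dio3 end. Red points were called lower, blue points higher and grey points were not called; the red points run through both clusters, and the blue points are the arms of miR-1247 at the Dio3 end.

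The 2 members called higher were the arms of miR-1247, the hairpin nearest Dio3, which is listed on the strand opposite to the clusters. miR-1247-5p was at 132, 103, 93.3 and 84.5 CPM at week 21 and at 217, 65.8, 204 and 96.5 CPM at week 104. The ages overlapped, replicate 2 of week 104 was the lowest of the 8, and the log2 fold change was 1.10 (SE 0.34, adjusted p = 0.0372). The 3′ arm was at 9.71, 1.17, 1.56 and 2.58 CPM against 13.0, 9.47, 11.4 and 9.90 CPM, with replicate 1 of week 21 apart from its group and a log2 fold change of 2.17 (SE 0.46, adjusted p = 0.0027). The 5′ arm was called in 7 of the 15 other settings tried and the 3′ arm in all 15.

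Whether these falls were shared by other organs was tested as the change in the uterus minus the mean change of 9 other organs of the female rats, in 1 fit of all these organs. Several organs came from each rat, and the fit took their libraries as separate, while a block for the rat, by replicate number within age, gave 54 lower and 24 higher uterus changes. In the fit as made, the uterus change was lower for 55 miRNAs (8.93% of the 616) and higher for 27 (4.38%), and 45 of the 59 called lower in the uterus were among the 55. In the region, 29 of 87 had a lower uterus change and none a higher one. For miR-127-3p the difference was −2.25 (SE 0.40, adjusted p = 5.1e-05), with log2 changes of −0.49 in liver to 0.63 in thymus in the other organs. For miR-411-5p it was −2.14 (SE 0.40, adjusted p = 7.78e-05) and for miR-541-5p −2.18 (SE 0.39, adjusted p = 4.88e-05). Of the region's 87 miRNAs, 5 were called lower in skeletal muscle (5.75%, against 2.11% of all 616 there) and 3 in brain (3.45%, against 2.76%, near that background). None was called lower in the other 7 organs by edgeR, where the share of all 616 was 0% in heart, 0.325% in kidney, 0.812% in spleen, 1.46% in liver, 1.95% in lung, 4.06% in adrenal gland and 14.4% in thymus. In these 7 organs 0 to 6 of the 87 were lower at an unadjusted p under 0.05. Skeletal muscle had 14 and brain 8 by that count, against 49 in the uterus in that fit. The median log2 change of the 87 was between −0.41, in skeletal muscle, and 0.16, in adrenal gland, in the 9 organs.

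Among the organs, the summed level of the region in the uterus changed place. At week 21, brain and adrenal gland were far above the rest, with 184300 ± 4267 and 104100 ± 17330 CPM. The uterus, at 1275 ± 344 CPM, lay beside heart (1301 ± 419.8) and lung (1328 ± 222.3), from which it did not differ beyond the spread. Skeletal muscle (3256 ± 1534) and spleen (2099 ± 342) were above it, and liver (803 ± 268), kidney (388 ± 61.6) and thymus (367 ± 78.8) below. At week 104 its mean of 333 ± 108 CPM was the lowest of the 10 organs, within the spread of the next, kidney, at 353 ± 74.2 (SD, n = 4 each in these). Both arms of miR-1247, which rose, made up 157 ± 77.3 CPM of the uterus sum at week 104. Without them the other 85 miRNAs summed to 1168 ± 321 CPM at week 21 and 175.9 ± 50.8 at week 104, against 289 ± 50.3 in kidney. For miR-127-3p alone, kidney, at 77.8 ± 31.0 CPM, had a lower mean than the uterus, at 123.6 ± 37.6.

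Since this region is rich in nerve tissue, the list of 24 miRNAs of neurons and glia was set beside it. Its summed level was 354 to 737 CPM at week 21 and 238 to 443.5 CPM at week 104. Of its members 5 were called lower (20.8%, against 9.58% of all 616) and 3 higher, where 3.57% of all 616 were. miR-124-3p, the defining miRNA of neurons, was at 56.5, 31.4, 12.9 and 11.6 CPM at week 21 and at 3.12, 1.40, 5.10 and 3.30 CPM at week 104 (log2 −2.54, SE 0.50, adjusted p = 0.00142). It did not overlap, and replicate 1 of week 21 was highest here as it was for miR-127-3p.

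miR-9a-5p, typical of neural progenitors and neurons, was at 177, 109.9, 59.4 and 46.1 CPM at week 21 and at 11.6, 19.4, 34.7 and 23.7 CPM at week 104 (log2 −1.65, SE 0.36, adjusted p = 0.00324). The ages did not overlap, and its 3′ arm was called with it (−2.06, adjusted p = 0.0121). With sequencing lane in the fit none of these 3 was called, at −1.24 (adjusted p = 0.223) for miR-124-3p, −0.91 (adjusted p = 0.288) for miR-9a-5p and −0.70 (adjusted p = 0.686) for miR-9a-3p, and without replicate 1 of week 21 miR-9a-3p was not called either (−1.79, adjusted p = 0.0541). The neuronal miR-153-3p was at −1.51 (adjusted p = 0.0441) with overlapping groups and was called in 8 of 15 other settings. miR-128-3p, a further neuronal miRNA, was not called (−0.30, adjusted p = 0.619), and its sign turned with sequencing lane in the fit.

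Per count of miR-124-3p the uterus held 30.3 counts of miR-127-3p at week 21 and 38.3 at week 104, from the mean CPM, against 9.7 in the brain at week 21. Per count of miR-9a-5p it held 8.66 and 5.52, against 3.59 in the brain. In the remaining organs at week 21, the ratio to miR-124-3p ran from 23.5 in thymus to 14200 in adrenal gland. The ratio to miR-9a-5p ran from 0.474 in kidney to 1710 in adrenal gland. The share of nerve tissue in the samples and its part in the fall of the region were not tested, and in bulk samples fewer cells of a type cannot be told apart from less RNA per cell. The changes in the uterus also differed from the other organs, by −3.05 for miR-124-3p (SE 0.56, adjusted p = 7.16e-05) and −1.71 for miR-9a-5p (SE 0.36, adjusted p = 0.000339).

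The miR-129 family, known from brain and endocrine cells, moved the other way within the same list. miR-129-1-3p was at 17.1, 10.02, 12.6 and 19.1 CPM at week 21 and at 21.1, 30.9, 42.9 and 67.7 CPM at week 104. It was 3.75-fold higher without overlap (log2 1.91, SE 0.47, adjusted p = 0.00795) and was called in all 15 other settings. miR-129-2-3p was at 1.82 (adjusted p = 0.0138). The shared 5′ arm, miR-129-5p, was at 36.6, 17.6, 14.1 and 41.3 CPM against 23.1, 54.5, 65.0 and 96.9 CPM, with overlap (log2 1.56, SE 0.50, adjusted p = 0.0432), and was called in 6 of 15. The 3′ arms differ mainly in listed length, so their counts are not independent. Against the mean of the other organs the differences were 1.49 (adjusted p = 0.00787) for miR-129-1-3p and 1.93 (adjusted p = 0.00241) for miR-129-2-3p, and 1.07 (adjusted p = 0.13) for miR-129-5p. Thymus rose almost as much as the uterus in that fit. It was at 1.796 for miR-129-1-3p and 1.741 for miR-129-2-3p, against 1.915 and 1.83 in the uterus. For miR-129-2-3p liver was the lowest organ, at −3.776.

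**Figure D4:**
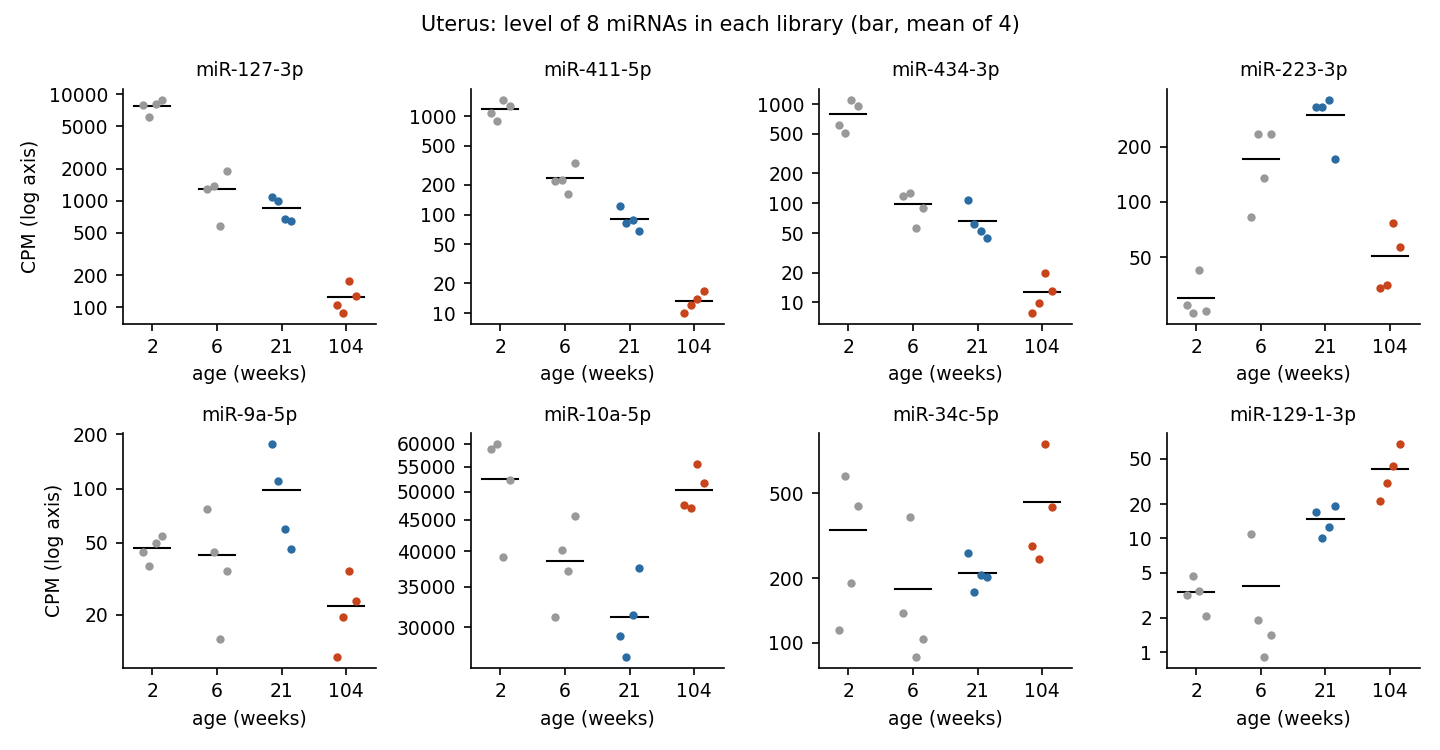
CPM (log axis, own scale in each panel) of 8 miRNAs in each uterus library at weeks 2, 6, 21 (blue) and 104 (red), with the mean of 4 as a bar. The 3 Dlk1-Dio3 miRNAs of the top row were highest at week 2 and lowest at week 104, miR-223-3p was highest at week 21, and miR-10a-5p was lowest at week 21.

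Among miRNAs of white blood cells, 2 of 8 were called lower and none higher, by the same edgeR test. For comparison, 9.58% of all 616 miRNAs were called lower, 4.73% of the 529 outside the Dlk1-Dio3 region, and 3.57% of the 616 higher. This list was not tested as a set. miR-223-3p, a miRNA of neutrophils and other myeloid cells, was at 328, 329.9, 359.6 and 172 CPM at week 21 and at 34.05, 35.5, 77.0 and 56.6 CPM at week 104. It was 4.28-fold lower without overlap (log2 −2.10, SE 0.31, adjusted p = 6.87e-05), and replicate 4 was the low library of week 21. Its mean had been 30.2 ± 8.51 CPM at week 2 and 171 ± 75.5 at week 6, so that week 21 was its peak.

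miR-142-3p, made throughout the blood lineages, was at 156.6, 152.5, 102 and 107 CPM against 34.999, 40.5, 65.4 and 47.4 CPM (log2 −0.98, SE 0.30, adjusted p = 0.0361), without overlap, and was called in 8 of 15 other settings. Its 5′ arm was not called (−0.63, adjusted p = 0.074). The lymphocyte miRNA miR-150-5p was at 288, 200.3, 269 and 209 CPM against 174, 221.3, 334 and 365 CPM and was not called (0.64, adjusted p = 0.0973). The whole list summed to 2141 to 2858 CPM at week 21 and to 853 to 1665 CPM at week 104.

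The uterus stood apart from the other organs in miR-223-3p. Its log2 change was between 0.03 in brain and 0.85 in liver in the 9 organs, and the difference was −2.56 (SE 0.29, adjusted p = 4.31e-10), the smallest adjusted p of that fit. For miR-150-5p the difference was 0.96 (adjusted p = 0.044), called in 2 of 13 other settings, and for miR-142-3p it was −1.03 (adjusted p = 0.114).

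Further falls were seen at low levels. miR-383-5p fell from 4.67 to 6.07 CPM at week 21 to 0.0946 to 0.621 CPM at week 104 (log2 −3.19, SE 0.59, adjusted p = 0.00075). miR-130b-3p was at 30.5, 13.4, 12.9 and 16.4 CPM against 2.65, 2.33, 4.37 and 1.59 CPM (−2.20, adjusted p = 7.46e-05). miR-135a-5p was at 12.4 to 18.4 CPM against 2.55 to 3.89 CPM (−1.75, adjusted p = 0.000821), and miR-879-5p at 17.6 to 35.7 CPM against 2.46 to 7.53 CPM (−1.95, adjusted p = 0.000101). None of these overlapped. The uterus change of each was lower than the mean change of the other organs, by −3.08, −2.54, −1.95 and −2.05 in the same order (adjusted p at most 0.000339). miR-130b-3p fell as much in thymus, at −2.18 there and −2.18 in the uterus in that fit. miR-592 was called too (−2.998, adjusted p = 0.000551). miR-383-5p, miR-130b-3p, miR-135a-5p, miR-879-5p and miR-592 were chosen after their values were seen.

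In families tied to growth, some members were called lower and none higher. For comparison, 9.58% of all 616 miRNAs were called lower, and 4.73% of the 529 outside the Dlk1-Dio3 region. These families were not tested as sets. The X-linked cluster from miR-322 to miR-542, which is high in growing tissue, had 3 of 12 called lower and all 12 with a log2 fold change below 0. miR-450a-5p was at 157, 167, 116 and 131 CPM against 44.8, 60.8, 83.3 and 59.0 CPM (log2 −0.73, SE 0.20, adjusted p = 0.0145). Its groups did not overlap, nor did those of miR-450b-5p (−0.63, adjusted p = 0.0372) and miR-542-3p (−0.93, adjusted p = 0.00529). The call of miR-450b-5p held in 6 of 15 other settings, with adjusted p up to 0.64, and with lane in the fit miR-450a-5p was not called either (−0.56, adjusted p = 0.326). The most abundant members, miR-351-5p (−0.49, adjusted p = 0.272) and miR-322-5p (−0.52, adjusted p = 0.449), were not called.

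Of the miR-15 family, which restrains the cell cycle, 2 of 10 were called lower, both arms of miR-15b, while its most abundant member miR-16-5p was not called (−0.36, adjusted p = 0.235). miR-15b-5p was at 90.0, 63.9, 68.8 and 56.1 CPM against 17.97, 31.0, 42.4 and 31.1 CPM, without overlap (log2 −0.73, SE 0.19, adjusted p = 0.0116), and with lane in the fit was not called (−0.78, adjusted p = 0.147). In the miR-17 and miR-106b clusters, which promote proliferation, 1 of 19 was called lower, miR-18a-5p, at 8.71 to 16.4 CPM against 2.08 to 4.01 CPM (−1.56, adjusted p = 0.00274). Of 5 miRNAs of the imprinted genes H19, Igf2 and Mest none was called by edgeR, and miR-335 of the Mest intron was at −0.74 (adjusted p = 0.0535).

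The rises were led in abundance by miR-10a-5p, which is encoded in the Hoxb cluster of body-axis genes. It was at 29012, 26817, 31450 and 37598 CPM at week 21 and at 47517, 47005, 55616 and 51642 CPM at week 104. The groups did not overlap, and the level was 2.28-fold higher (log2 1.19, SE 0.24, adjusted p = 0.00155). It was called in 14 of 15 other settings, by totals alone at 0.69 (adjusted p = 0.00691), but not with lane in the fit (0.78, adjusted p = 0.0512). Against the mean of the other organs its change was higher by 1.20 (SE 0.33, adjusted p = 0.00811). Thymus was the highest of these organs, at 1.06, against 1.20 in the uterus in that fit.

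Of the 11 miRNAs of the Hox clusters 2 were called higher, where 3.57% of all 616 were, and none lower. The other was miR-196b-5p, at 1669, 1507, 1323 and 1967 CPM against 1517, 2243, 2334 and 2028 CPM (log2 0.80, SE 0.19, adjusted p = 0.00656), with overlap. By totals alone it was not called (0.33, adjusted p = 0.384). miR-10b-5p, at 228000 ± 40590 CPM at week 21 and 268300 ± 17200 at week 104, was not called (0.76, adjusted p = 0.0884).

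The miRNAs of multiciliated cells, which line the oviduct and parts of the uterine lining, had 3 of 6 called higher, against 3.57% of all 616. miR-34c-5p was at 261.9, 172.9, 207.7 and 203.2 CPM at week 21 and at 284.8, 246.3, 851 and 429.3 CPM at week 104 (log2 1.53, SE 0.47, adjusted p = 0.0361). Replicate 3 of week 104 was highest and replicate 2 overlapped with week 21. Both arms of its neighbour miR-34b were called, at 1.42 (adjusted p = 0.0418) for the 5′ arm and 1.78 (adjusted p = 0.0372) for the 3′ arm, and each of these 3 was called in 7 of 15 other settings. miR-449a-5p, which shares their seed and is also typical of multiciliated cells, was not called (−0.37, SE 0.88, adjusted p = 0.827). The difference from the other organs was not called for miR-34c-5p (1.05, adjusted p = 0.252).

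Smaller rises were found in a further 5 miRNAs, all with overlap between the ages. miR-26a-5p, known to act on the chromatin enzyme gene Ezh2, was at 34537, 22994, 23892 and 25463 CPM against 25000, 26102, 37427 and 32742 CPM (log2 0.68, SE 0.17, adjusted p = 0.0116). miR-26b-5p was at 0.73 (adjusted p = 0.0138), miR-125a-5p at 0.93 (adjusted p = 0.0361), miR-1b of the muscle miR-1 family, with means of only 58.6 and 73.3 CPM, at 0.78 (adjusted p = 0.0249) and miR-23a-3p at 0.68 (adjusted p = 0.0138). By totals alone none of these 5 was called, with log2 fold changes of 0.18 to 0.39. The uterus change of miR-26a-5p was higher than the mean of the other organs by 0.64 (adjusted p = 0.00333), that of miR-26b-5p by 0.70 and that of miR-23a-3p by 0.59. For miR-23a-3p, thymus rose by 0.78, above the uterus at 0.69 in that fit.

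Both arms of miR-802, known from liver and pancreas, were called higher at log2 values of 3.08 and 3.23 for the 5′ and 3′ arm. These rested on 2 libraries. miR-802-5p was at 0.284 and 0.310 CPM in replicates 1 and 2 of week 104 and at 5.95 and 5.38 CPM in replicates 3 and 4, against 0.287 to 0.622 CPM at week 21. The 3′ arm was at or under 3 counts in every library of week 21 and at least 5.63-fold higher at week 104. The hepatocyte miRNA miR-122-5p was at 1.89, 0.621, 3.64 and 4.401 CPM in the same libraries and 3.73 to 9.63 CPM at week 21, and was not called (−1.04, adjusted p = 0.154). Of 8 liver miRNAs 2 were called higher, these arms, where 3.57% of all 616 were.

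**Figure D5:**
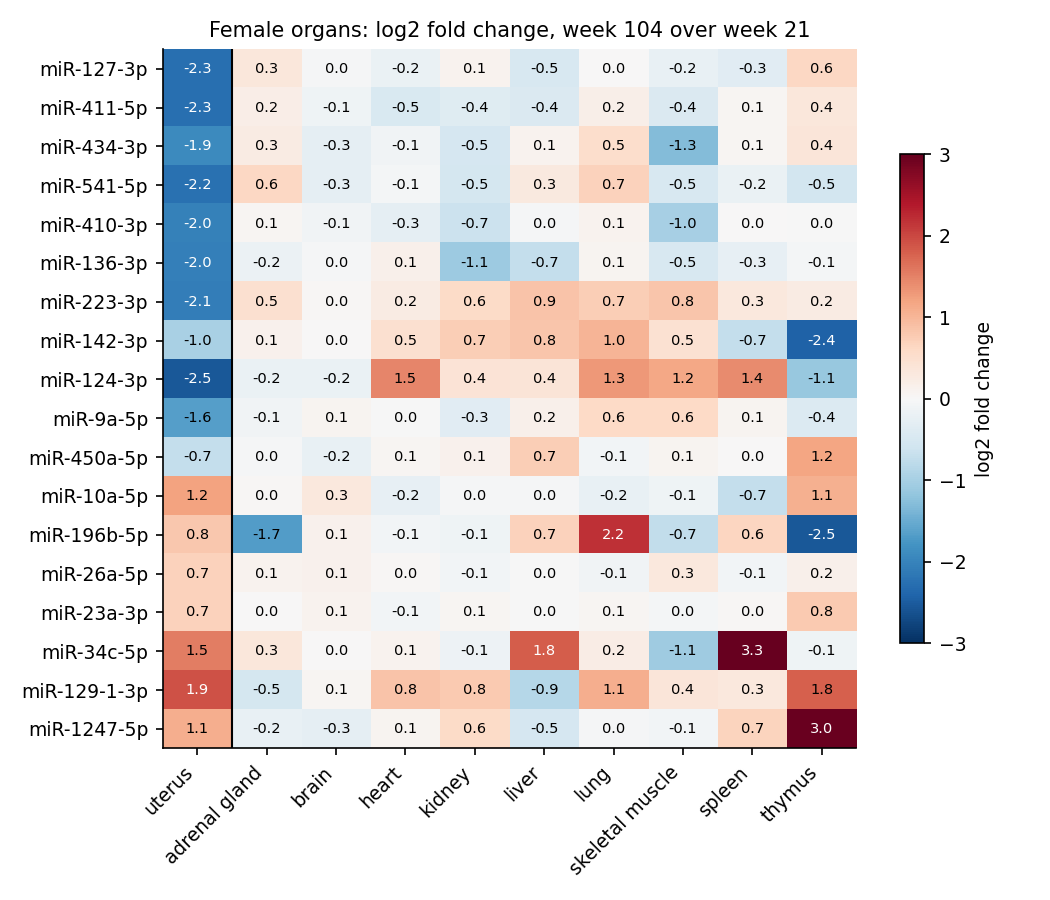
Log2 fold change, week 104 over week 21, of 18 miRNAs (rows) in the uterus and 9 other organs of female rats (columns), from 1 fit, with blue for falls and red for rises. The 6 Dlk1-Dio3 miRNAs at the top were at −1.90 to −2.27 in the uterus and at −1.30 or above in each other organ.

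The cell types that make up most of the uterus gave no calls in this test. Of 6 smooth muscle miRNAs none was called, with miR-143-3p at 473100 ± 41620 CPM at week 21 and 442000 ± 17200 at week 104 (log2 0.43, SE 0.21, adjusted p = 0.207) and miR-145-5p at 0.42 (adjusted p = 0.402). Of 18 epithelial miRNAs none was called, with miR-200b-3p at −0.32 (adjusted p = 0.554) and miR-141-3p at 0.74 (adjusted p = 0.145). By totals alone 4 of these 18 were called lower, where 101 of all 616 were. The CPM of 3 of the 18 were lower without overlap, where 23.2% of all 616 were. There were no calls among 4 mesenchymal, 7 miR-29, 2 endothelial, 13 striated muscle, 5 red blood cell, 4 miR-221 and miR-222, 8 inflammation and senescence, 21 testis or 2 miR-98 miRNAs. Over all 95 miRNAs of the lists without a call, the one of imprinted genes included, 10 had an unadjusted p under 0.05 and DESeq2 called 6. Examples are miR-199a-3p (0.14), miR-29a-3p (0.47, adjusted p = 0.0956), miR-126a-3p (0.54, adjusted p = 0.072), miR-133a-3p (0.24), miR-486 (0.99, adjusted p = 0.0638) and miR-21-5p (0.03, adjusted p = 0.963). A p above the threshold does not show that the level was the same, and the SE of these values was 0.18 to 0.34.

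The calls leaned on the scaling and on single libraries more for rises than for falls. Leaving out 1 library at a time gave 8 to 19 rises and 45 to 62 falls, with 26 to 35 falls in the region. The lanes are those of the study's sample table. The ages shared 1 sequencing lane of the 4 used for each, holding replicate 4 of week 21 and replicate 3 of week 104. Within it miR-127-3p was at 648 CPM at week 21 and 174.9 CPM at week 104, and miR-10a-5p at 37598 and 55616 CPM. Both libraries were part of the fit, so this is no separate test. With lane as a factor over all 16 uterus libraries, 33 fell, 21 of them in the region, and 13 rose.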

How the data were processed

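Small RNA of ground uterus from 16 female rats (4 ages) was analysed, with the other organs of the females for the test against other organs. The authors deposited raw read counts per miRNA without normalization, after trimming with fastp 0.23.2, keeping reads by length, and aligning to miRBase with Bowtie 1.3.1 with less than 2 mismatches. Counts carry no molecular identifiers, so PCR copies were counted as reads. Per the labels and the paper, replicates were separate rats.

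From the counts, edgeR 4.0.16 (R 4.3.3) was fitted by quasi-likelihood with TMM to the 16 uterus libraries as 4 age groups, without a filter, and week 104 was compared with week 21. The test against 9 other female organs used 1 fit with TMM factors computed within each organ, leaving out a spleen library that the study removed. Both were tried on simulated counts with 200 miRNAs changed in random directions. The shift of TMM factors between the ages was not built in, so this does not test the scaling. CPM used library totals. DESeq2 1.42.0 was an alternative. Tables were made with Python and pandas. Replicates differed beyond counting error in all 12 pairs, with chi-square values 56.3 to 850 times their degrees of freedom, so none was counted as a copy of another. Counting error is small at these totals. For a miRNA at or under 3 counts in every library of an age, the fitted log2 value depends on the prior count. A bound is given for some of these.

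The members, lists and tests were chosen with earlier results of these data known. Named miRNAs were the 10 largest rises and falls among calls with at least 50 CPM, the 5 most abundant, up to 4 of each list by level, the other arms and neighbours within 10 kb, and others stated as chosen after seeing values. Sequences are from the deposited table. RefSeq (GRCr8) gave gene order, and its coordinates are not printed because the study used Rn7. Let-7 miRNAs were not analysed here. Alternatives were scaling, filter, DESeq2, the 8 libraries alone, replicate block, lane, 1 library left out, and for the organ test also rat block and 7 organs.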

Additional observations from a re-analysis of the deposited data

Results flagged for a closer look

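Within the groups of 4, these libraries stood apart from the rest. Such gaps turn up by chance in about 1 group in 20. The lowest library of week 104 was at 1.23 CPM for miR-410-3p (others 4.04 to 4.52) and at 2.55 CPM for miR-135a-5p (others 3.67 to 3.89). The highest library of week 104 was at 577 CPM for miR-486 (others 364 to 392). At week 21 the lowest library was at 172 CPM for miR-223-3p (others 328 to 359.6) and at 21410 CPM for miR-21-5p (others 23270 to 23590). At week 21 the highest library was at 9.71 CPM for miR-1247-3p (others 1.17 to 2.58), at 2028 CPM for miR-142-5p (others 1566 to 1639) and at 691 CPM for miR-351-5p (others 521 to 532).

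The age change in the uterus differed from the mean of the other organs, by the test of the difference itself, for these miRNAs. In the Dlk1-Dio3 region the log2 difference was −2.25 for miR-127-3p, −2.14 for miR-411-5p, −1.81 for miR-434-3p, −2.18 for miR-541-5p, −1.82 for miR-410-3p, −1.76 for miR-136-3p and −1.76 for miR-341. It was −3.49 for miR-376a-3p, −2.77 for miR-376b-3p and −3.21 for miR-485-3p, at under 5 CPM in every library of weeks 21 and 104. Fitted values of miRNAs at the floor at 1 age, here miR-376a-3p, miR-485-3p and miR-802-3p, depend on the prior count.

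Outside the region it was −2.56 for miR-223-3p, −3.05 for miR-124-3p, −1.71 for miR-9a-5p, −2.29 for miR-9a-3p, −2.22 for miR-153-3p, −3.08 for miR-383-5p, −2.54 for miR-130b-3p, −1.95 for miR-135a-5p, −2.05 for miR-879-5p, −0.93 for miR-450a-5p and −0.91 for miR-542-3p. The uterus change was higher by 1.20 for miR-10a-5p, 0.98 for miR-196b-5p, 0.64 for miR-26a-5p, 0.70 for miR-26b-5p, 0.59 for miR-23a-3p, 1.76 for miR-1b, 1.49 for miR-129-1-3p, 1.93 for miR-129-2-3p, 0.96 for miR-150-5p and 3.72 for miR-802-3p. A difference from the mean does not make a change particular to the uterus. miR-196b-5p rose more in lung, at 2.199 against 0.818 in the uterus in that fit, and was at −2.532 in thymus. For miR-1b the uterus was at 0.80, with lung at −2.463, liver at −1.95 and adrenal gland at −1.926. miR-153-3p was at −1.793 in thymus and −1.496 in the uterus.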

How the results depend on the processing

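Falls were steadier than rises with 1 library left out and in the calls kept by totals alone, but not with sequencing lane. With lane, 32 of the 59 falls and 12 of the 22 rises of the main fit stayed called. Rises numbered 22 in the main fit, 5 with library totals alone, 37 with the 8 libraries only, 13 with sequencing lane and 8 to 19 with 1 library left out, the lowest without replicate 2 of week 21. They were under 22 by more than 1.5 times also without replicates 1 (14) or 3 (12) of week 21 and replicates 1 (12) or 4 (13) of week 104. Falls numbered 59, against 101 by totals, 33 with lane and 45 to 62 with 1 library left out, and in the region 34, against 21 with lane and 26 to 35. Uterus changes above those of the other organs numbered 27, against 2 by totals, 11 with TMM across all organs at once, an alternative chosen after seeing the data, and 8 to 23 with 1 library left out. The lowest was without replicate 1 of week 21, with 17 and 15 without its replicates 2 and 3. Those below numbered 55, against 120 by totals and 47 to 54.

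Rats differed between ages, so replicate numbers did not pair libraries (correlations of deviations of 0.21, −0.09, 0.03 and 0.18, the first and last numbers matching best with themselves). The replicate block gave 20 rises and 52 falls, 32 of them in the region. A mean count of at least 10 gave 21 and 52 among 370 miRNAs, RLE factors 22 and 58, and DESeq2 33 and 62.

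Among the named miRNAs the sign turned only for some that were not called. By totals alone log2 fold changes were −0.10 for miR-143-3p, −0.058 for miR-145-5p, −0.46 for miR-21-5p, −0.28 for miR-199a-3p and −0.18 for miR-133a-3p. With lane they were 0.23 for miR-128-3p, 0.13 for miR-449a-5p and −0.35 for miR-21-5p. With 1 library left out, miR-22-3p ranged from −0.20 to 0.022 and miR-21-5p from −0.12 to 0.10. The cause was not tested. Low levels limit the rest, since 123 miRNAs were at or under 3 counts in every library of both ages.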

Other observations

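miR-22-3p, on no list but among the 5 most abundant miRNAs of the uterus, was at 33571, 22950, 22823 and 24898 CPM at week 21 and at 14822, 15470, 22015 and 18367 CPM at week 104. These CPM did not overlap, but with TMM scaling the log2 fold change was −0.06 (SE 0.17, adjusted p = 0.862), and by totals alone −0.56 (adjusted p = 0.0903). miR-24-3p, named because it is made near miR-23a, a called rise, was at 0.60 (adjusted p = 0.0475) and was called in 5 of the 15 other settings.

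Arms of 1 hairpin moved in the same direction. Of 27 hairpins with both arms at a mean count of at least 10 and an arm called, 27 had the same sign in both arms and 11 had both arms called. Both arms share a hairpin, so this is a description of the measurement.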
